A study of Mus musculus with 8 samples.

Results

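The genes described here are 37 components of the endoplasmic reticulum (ER), the compartment where secreted and membrane proteins are made, folded and inspected. They were chosen by name, and their Ensembl identifiers were matched to mouse gene symbols in the deposited table. All 37 were found among its 35275 genes, and all 37 passed the filter for testing, an average level of 1 FPKM or more, which 10981 genes met. By role, 11 are chaperones and co-chaperones, 4 are disulfide isomerases, 10 serve protein translocation into the ER or signal peptide cleavage, 7 serve ER-associated degradation and 5 are stress sensors or regulators. FPKM is a fragment count scaled to the length of the gene's transcript and to the size of the library.

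Myotubes, the multinucleated muscle cells that fuse in culture, were differentiated in medium with horse serum from myogenic progenitor cells (MPCs) that had been isolated from C57BL6/J mice. They then received extracellular vesicles (EVs), small membrane particles released by cells, for 12 h or 24 h. MPC EV myotubes received EVs of MPCs, and control myotubes received EVs prepared from growth media, so every group was given some EV preparation. Each of the 4 groups has 2 libraries. With no untreated myotubes among the samples, a higher level under MPC EVs and a lower level under the control preparation cannot be told apart. The age of the mice and the EV dose are not stated. Whether both libraries of a group stem from different cultures is not stated either, and the spread behind each p-value may therefore be technical only.

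Proteins that enter the ER pass through the Sec61 channel, lose their signal peptide and are folded by the chaperone Hspa5 (BiP), by its J-domain partners, by the lectin chaperones and by disulfide isomerases. Proteins that fail to fold are sent back to the cytosol through the Sel1l and Syvn1 (Hrd1) complex and degraded by the proteasome. When folding capacity falls short, the sensors Atf6, Ern1 (IRE1) and Eif2ak3 (PERK) start the unfolded protein response, in which Atf6 and the transcription factor Xbp1 raise the transcription of chaperone and degradation genes. Myotubes make large amounts of membrane, junctional and secreted protein during differentiation, and this response is known to be active in that period.

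The DNA element through which Atf6 acts, together with the CCAAT-binding factor NF-Y, is the ER stress response element (ERSE), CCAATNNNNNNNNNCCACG. Its sites are shown as a description. The genes were chosen by name and not by sequence, but many are chaperone and degradation genes, the kinds that Atf6 is known to raise. A share with the element above that of all genes is therefore no independent result. RefSeq promoter windows (build GRCm38.p6, 250 bases before to 50 bases after the start site) were found for 30 of the 37 genes and searched on both strands. The element was present in 9 of the 30 (30.0%) and in 37 of all 27025 genes with a window (0.137%). Sites are printed 5′ to 3′ on the strand that carries them, with CCAAT and CCACG, the letters that the element fixes, in capitals.
Hspa5, chr2:34772025-34772043, plus strand: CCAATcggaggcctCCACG
Hsp90b1, chr10:86705638-86705656, minus strand: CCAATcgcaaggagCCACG
Hsp90b1, chr10:86705533-86705551, plus strand: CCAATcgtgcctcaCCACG
Calr, chr8:84847075-84847093, plus strand: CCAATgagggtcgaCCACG
Canx, chr11:50325800-50325818, minus strand: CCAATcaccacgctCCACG
Dnajc3, chr14:118937827-118937845, plus strand: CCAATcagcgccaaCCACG
Creld2, chr15:88819520-88819538, minus strand: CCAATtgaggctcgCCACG
Pdia6, chr12:17266491-17266509, plus strand: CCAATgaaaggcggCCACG
Syvn1, chr19:6046532-6046550, plus strand: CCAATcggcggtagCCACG
Derl3, chr10:75893242-75893260, minus strand: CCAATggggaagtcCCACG

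All 10 sites lie before the RefSeq start site of their gene. The site of Hspa5 runs from position -65 to -47 and that of Syvn1 from -44 to -26. In GENCODE vM21, a second annotation of the same build, Hspa5 starts at chr2 position 34771970, ahead of its site. Hsp90b1 carries a pair of sites, one on each strand, and the stretch that spans both is printed on the gene's minus strand, with the opposite-strand copy at its right end.
Hsp90b1, chr10:86705533-86705656, minus strand: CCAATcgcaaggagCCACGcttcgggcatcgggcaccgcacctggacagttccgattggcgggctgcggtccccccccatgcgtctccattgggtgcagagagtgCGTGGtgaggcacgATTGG

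The related element ERSE-II, ATTGG and CCACG parted by a single base, shares CCACG with the ERSE and was present in 2 of the 30 genes (6.67%), against 12 of all genes with a window (0.0444%). Its fixed letters are in capitals.
Herpud1, chr8:94386377-94386387, plus strand: ATTGGgCCACG
Dnajb11, chr16:22857852-22857862, plus strand: ATTGGcCCACG
The Dnajb11 site lies just after the RefSeq start site, at positions 8 to 18. The UPR element TGACGTGG, whose last 5 letters are the reverse complement of CCACG, was in 0 of the 30 windows and in 193 of all genes (0.714%). A match of letters is a description and not a measured binding site, and a window without a match says only that these letters are not in it.

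The libraries held 16.3 to 20.2 M fragments (M for mega), estimated from the smallest steps between FPKM values. The 2 libraries of a group correlated at 0.992 to 0.996 across genes in 3 groups and at 0.947 in the control 12 h group, where replicate 2 stood apart. Results that rest on that library are therefore given with and without it. The summed level of 12 myotube markers was 18790 to 21780 FPKM in control and 20970 to 22550 in MPC EV myotubes at 12 h, and 14710 to 15070 and 18390 to 20230 at 24 h. Of 8 progenitor markers, none was at 0 in all libraries, and their sum was 463 to 489 and 500.0 to 517 FPKM at 12 h and 318 to 321 and 361 to 386 at 24 h, control first. Fibroblast markers, 10 in number, summed to 76.2 and 84.1 FPKM in control and 61.4 and 73.5 under MPC EVs at 12 h, and to 94.99 and 97.7 in control and 83.1 and 81.3 under MPC EVs at 24 h. Of these, Col3a1 was called higher at 24 h in control (0.33 ± 0.08, limma adjusted p = 0.0367). Macrophage markers summed to 1.16 to 2.996 FPKM over the 8 libraries. With time the myotube and progenitor sums were thus lower and the fibroblast sum higher in both treatments, the last in the same direction as the ER genes. Abundant genes carry these sums, and not all markers moved with them. Of the 12 myotube markers 2 had a positive change in each treatment. Of the 8 progenitor markers 2 did in control and 3 under MPC EVs, and Myf5 was called higher in control (1.162 ± 0.165, limma adjusted p = 0.00629). Of 5 tested fibroblast markers 5 and 4 did. The part of these cell types in the results below was not tested, and in bulk RNA fewer cells of a type and less RNA per cell cannot be told apart. The libraries were not strand-specific, so reads of Manf, Syvn1, Pdia3, Pdia6, Derl2, Ssr2 and 7 other members that overlap an exon of another annotated gene cannot be told from those of the neighbour.

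At 12 h in control myotubes the level of the 37 genes ran from Hspa5, the most abundant at 838 ± 49.5 FPKM (SD, n = 2), to Derl3, a derlin of the degradation machinery, at 1.48 ± 0.461 FPKM. Calr followed Hspa5 at 473 ± 65.7 FPKM and Pdia6 came next at 339 ± 35.2 FPKM. Of the ER stress sensors, Atf6 stood at 57.6 ± 2.44 FPKM, above the co-chaperone Dnajc3 in both libraries, while Ern1 at 9.67 ± 0.855 and Eif2ak3 at 4.04 ± 0.444 FPKM were below every chaperone. FPKM is scaled to transcript length, but the counting tool and annotation behind it are not stated. GC content and reads shared with a neighbour may also shift a level, so the order of genes is approximate. Calr and Pdia6 do not overlap in their control 12 h libraries, whose lowest value for Calr is 427 FPKM and whose highest for Pdia6 is 364 FPKM.

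Between 12 h and 24 h in control myotubes, 13 of the 37 genes rose and 0 fell (limma, Benjamini-Hochberg adjusted p under 0.05 over all tested genes). Among all tested genes 7.54% rose and 10.3% fell. The median change of the 37 was 0.40 and that of all tested genes 0.02, on the log2(FPKM + 0.5) scale that holds for every change given here and that understates the change of genes with low FPKM. In 26 of the 37 both libraries at 24 h lay above both at 12 h, which was so for 27.8% of all tested genes. Under MPC EVs, 11 of the 37 rose and 0 fell, beside 12.9% and 5.4% of all tested genes, with a median of 0.22 for the 37 and 0.10 for all. In 32 of the 37 both libraries at 24 h were above both at 12 h, against 47.1% of all tested genes. The 2 time comparisons share no library. Both come from the same model with the same estimate of spread for each gene, so their calls are not independent. The 2 comparisons have 10 called genes in common, which is 76.92% of the control calls and 90.91% of the MPC EV calls. No such share is given for all tested genes.

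By role, chaperones and co-chaperones rose in 5 of 11 cases in control and in 3 of 11 under MPC EVs, with median changes of 0.60 and 0.34. Degradation genes rose in 5 of 7 cases in both, with medians of 0.41 and 0.42. Sensors and regulators rose in 3 of 5 cases in both. Of the 4 disulfide isomerases and the 10 translocation and signal peptidase genes, 0 were called in either treatment, with medians of 0.13 and 0.09 for the isomerases and 0.08 and 0.15 for the translocation genes. At an unadjusted p under 0.05, 1 isomerase stood higher in each treatment. For translocation genes that count was 1 in control and 2 under MPC EVs. Among all tested genes 33.3% in control and 34.1% under MPC EVs had such a p, in either direction. Leaving out control 12 h replicate 2, the control medians were 0.53 for chaperones, 0.17 for isomerases and 0.08 for translocation genes. Those of degradation genes and of sensors and regulators were 0.57 and 0.44, beside -0.002 for all tested genes. Whether the roles differ from each other was not tested.

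**Figure D1:**
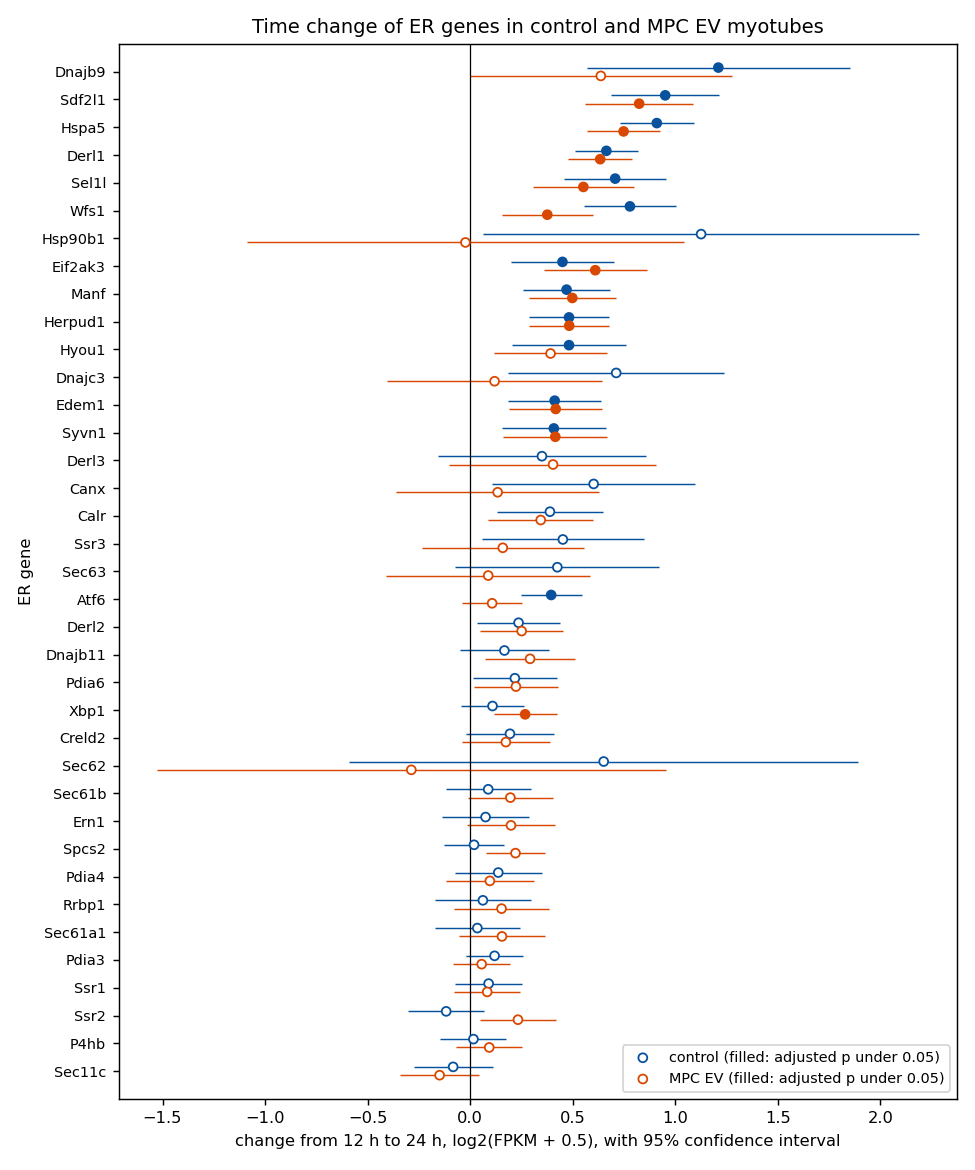
Change from 12 h to 24 h (x, log2(FPKM + 0.5), with 95% confidence interval) of each of the 37 ER genes (y), in blue for control and in orange for MPC EV myotubes, filled where the adjusted p is under 0.05. Filled points of both colours gather at the top, with Sdf2l1, Hspa5, Derl1 and Sel1l above 0.5 in both treatments, and no filled point lies below 0.

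Among the chaperones, Hspa5, the Hsp70-type chaperone of the ER lumen (GRCm38 chr2:34771970-34777547), stood at 803 and 873 FPKM in the control libraries at 12 h and at 1521 and 1629 at 24 h. Under MPC EVs it stood at 838 and 835 FPKM at 12 h and at 1452 and 1360 at 24 h. Both 24 h groups lay wholly above both 12 h groups, and the 2 treatments overlapped at 12 h but not at 24 h, where control was the higher. Its rise was 0.91 ± 0.07 (SE, 1.88-fold, adjusted p = 0.00103) in control and 0.75 ± 0.07 (1.68-fold, adjusted p = 0.00254) under MPC EVs. Hspa5 passed the threshold in all 20 alternative analyses of both time comparisons.

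Sdf2l1, a small lumenal protein that works with BiP and its J-domain partners, rose most under MPC EVs. Its control libraries held 41.7 and 51.9 FPKM at 12 h and 86.7 and 94.3 at 24 h, and its MPC EV libraries 48.5 and 52.1 at 12 h and 89.5 and 89.1 at 24 h. The treatments overlapped at both times, and the change was 0.95 ± 0.11 (adjusted p = 0.00297) in control and 0.82 ± 0.11 (adjusted p = 0.00597) under MPC EVs. Manf, a secreted factor that binds BiP, went from 117 and 137 FPKM to 171 and 179 in control and from 116 and 115 to 169 and 157 under MPC EVs. Its rises of 0.47 ± 0.09 and 0.50 ± 0.09 both passed (adjusted p = 0.0157 and 0.0139). Hyou1, the Grp170 chaperone that exchanges nucleotide on BiP, stood at 83.2 and 99.5 FPKM in control and 86.2 and 101 under MPC EVs at 12 h. At 24 h the values were 121 and 134 in control and 125 and 120.0 under MPC EVs. Its change passed in control (0.48 ± 0.12, adjusted p = 0.0348) and not under MPC EVs (0.39 ± 0.12, adjusted p = 0.0621). The difference between these 2 changes of Hyou1 was -0.09 ± 0.16, so they are not shown to differ.

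Dnajb9 (ERdj4), the J-domain partner that brings misfolded proteins to BiP, had the largest control change of the 37, and that size rests on 1 library. Its control libraries at 12 h differed, with 71.6 FPKM in replicate 1 and 37.7 in replicate 2, against 69.7 and 69.6 under MPC EVs. At 24 h it held 117 and 125 FPKM in control and 104 and 113 under MPC EVs, above all 12 h libraries. The control change was 1.21 ± 0.27 (adjusted p = 0.0265) and the MPC EV change 0.64 ± 0.27 (adjusted p = 0.148). Without control 12 h replicate 2 the 2 changes of Dnajb9 were 0.75 and 0.64, and both passed (adjusted p = 0.000442 and 0.000286).

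The other chaperones did not pass in either time comparison with all libraries. Calr and Canx, the lectin chaperones that hold glycoproteins, had control changes of 0.39 ± 0.11 and 0.60 ± 0.20 (adjusted p = 0.053 and 0.0948). Hsp90b1 (Grp94), Dnajc3 (p58IPK), Dnajb11 (ERdj3) and Creld2 had control changes of 1.13, 0.71, 0.17 and 0.19. The control changes of Canx and Dnajc3 were 0.25 and 0.35 without control 12 h replicate 2, and both passed (adjusted p = 0.0325 and 0.0262). Under MPC EVs the changes were 0.34 for Calr, 0.13 for Canx, -0.02 for Hsp90b1, 0.12 for Dnajc3, 0.29 for Dnajb11 and 0.17 for Creld2. The disulfide isomerases, abundant enzymes that form and shuffle disulfide bonds, had changes from 0.02 (P4hb) to 0.22 (Pdia6) in control and from 0.06 (Pdia3) to 0.22 (Pdia6) under MPC EVs.

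Among the degradation genes, Derl1, a membrane protein of the retrotranslocation channel (GRCm38 chr15:57869502-57892448), rose in both treatments. It stood at 72.2 and 78.8 FPKM in control and 75.7 and 75.3 under MPC EVs at 12 h, and at 117 and 123 in control and 119.6 and 115 under MPC EVs at 24 h. The treatments overlapped at both times. Its rise was 0.66 ± 0.06 (1.58-fold, adjusted p = 0.00169) in control and 0.63 ± 0.06 (1.55-fold, adjusted p = 0.00269) under MPC EVs, and it passed in all 20 alternatives of both.

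Sel1l, the adaptor that hands substrates to Syvn1, held 41.5 and 48.7 FPKM at 12 h and 70.6 and 77.1 at 24 h in control. Under MPC EVs it held 40.0 and 45.6 FPKM at 12 h and 62.5 and 63.2 at 24 h, where both libraries were below both control libraries. Its rises were 0.71 ± 0.10 and 0.55 ± 0.10 (adjusted p = 0.00677 and 0.0166). Herpud1, a short-lived scaffold of the same complex, went from 192 and 218 to 275 and 298 FPKM in control and from 186 and 195 to 269 and 263 under MPC EVs. Its rise was 0.48 ± 0.08 in each treatment (adjusted p = 0.0107 and 0.0119). Syvn1, the ubiquitin ligase of the complex, went from 15.3 and 17.7 to 22.1 and 22.0 FPKM in control and from 14.4 and 17.1 to 20.8 and 21.4 under MPC EVs. Its change was 0.41 ± 0.10 in each treatment (adjusted p = 0.0438 and 0.0412). Edem1, which marks terminally misfolded glycoproteins, had 8.12 and 9.49 FPKM in control and 9.01 and 9.36 under MPC EVs at 12 h. At 24 h it had 11.5 and 12.2 in control and 12.1 and 12.7 under MPC EVs, with changes of 0.41 and 0.42 (adjusted p = 0.0311 and 0.0306). The calls of Syvn1 and Edem1 lay close to the threshold and were lost in 10 and 11 of 20 alternatives in control and in 11 and 10 under MPC EVs. Derl2 and Derl3 did not pass, with control changes of 0.24 and 0.35 and MPC EV changes of 0.25 and 0.40.

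Among the sensors, Eif2ak3 (PERK), the kinase that slows translation under ER stress, rose in both treatments. It had 3.73 and 4.35 FPKM in control and 3.33 and 3.26 under MPC EVs at 12 h, and 5.80 and 5.58 in control and 5.12 and 5.47 under MPC EVs at 24 h. The changes were 0.45 ± 0.10 (adjusted p = 0.0309) and 0.61 ± 0.10 (adjusted p = 0.0126). The control call of Eif2ak3 was lost in 11 of 19 alternatives and its MPC EV call in 4. Ern1 (IRE1), the nuclease that splices Xbp1 RNA, had 9.06 and 10.3 FPKM in control and 7.69 and 7.81 under MPC EVs at 12 h, and 10.5 and 9.94 in control and 8.70 and 9.25 under MPC EVs at 24 h. Both MPC EV libraries of Ern1 were below both control libraries at each time, and its time changes of 0.07 ± 0.09 and 0.20 ± 0.09 did not pass. Xbp1, whose gene-level FPKM does not show splicing, had 87.0 and 95.9 FPKM in control and 78.9 and 78.7 under MPC EVs at 12 h, and 97.1 and 99.9 in control and 96.5 and 93.6 under MPC EVs at 24 h. It passed under MPC EVs (0.27 ± 0.06, adjusted p = 0.0343) and not in control (0.11 ± 0.06, adjusted p = 0.281), and the difference of 0.16 ± 0.09 did not pass (adjusted p = 0.377). With the median-ratio scaling of libraries the MPC EV change of Xbp1 was 0.15, and its call was lost.

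Atf6, the sensor that is cleaved to a transcription factor (GRCm38 chr1:170704674-170867771), had 55.8 and 59.3 FPKM in control and 64.2 and 67.0 under MPC EVs at 12 h. At 24 h it had 73.6 and 78.2 FPKM in control and 70.1 and 71.3 under MPC EVs. The MPC EV libraries lay above control at 12 h and below control at 24 h, with no overlap at either time. The rise of Atf6 was 0.40 ± 0.06 in control (adjusted p = 0.00844) and 0.11 ± 0.06 under MPC EVs (adjusted p = 0.274). The control rise of Atf6 was 0.15 and no longer passed after a correction of each library for GC content and transcript length. It was 0.35 and did not pass without control 24 h replicate 2.

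Wfs1 (wolframin), an ER membrane protein that restrains Atf6 signalling (GRCm38 chr5:36966104-36989205), had 76.4 and 91.7 FPKM in control and 114 and 116 under MPC EVs at 12 h. At 24 h it had 139.7 and 149 FPKM in control and 152 and 146 under MPC EVs. The treatments did not overlap at 12 h, where MPC EV libraries were higher, and overlapped at 24 h. Its rise was 0.78 ± 0.09 in control (1.72-fold, adjusted p = 0.00322) and 0.38 ± 0.09 under MPC EVs (1.30-fold, adjusted p = 0.0377). The MPC EV call of Wfs1 was lost in 10 of 20 alternatives and its control call in 1.

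**Figure D2:**
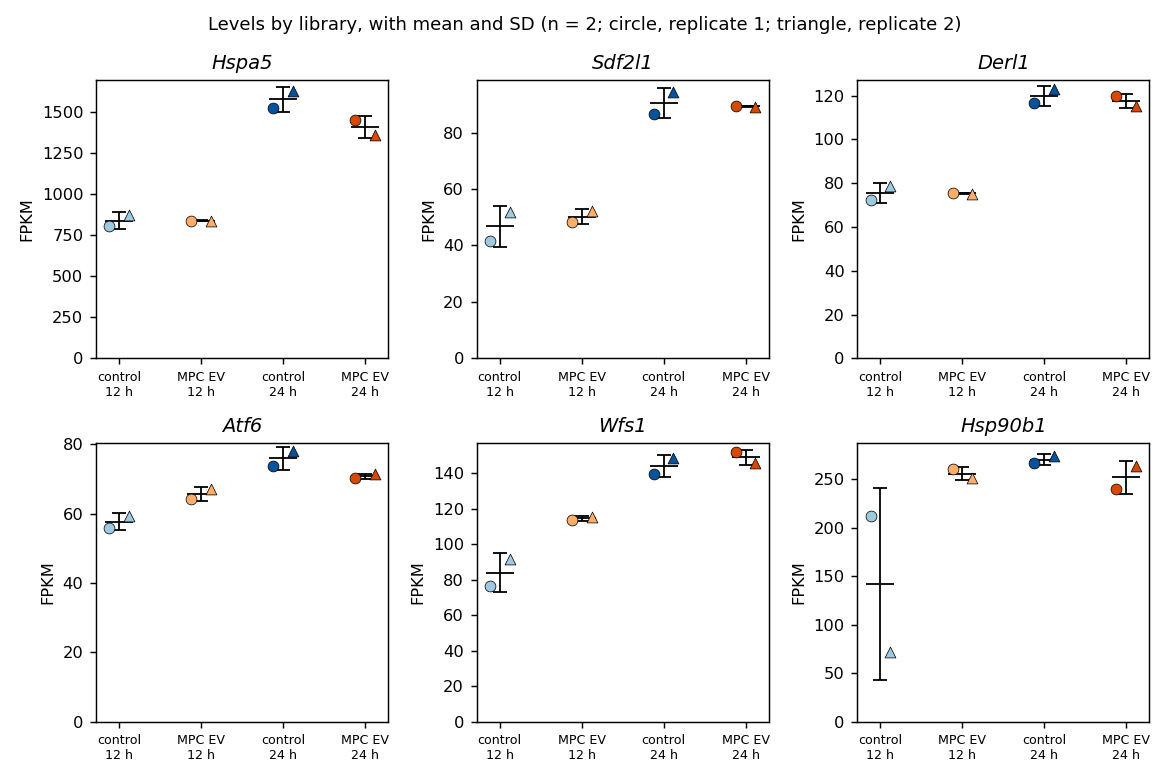
FPKM (y, from 0) in each library of Hspa5, Sdf2l1, Derl1, Atf6, Wfs1 and Hsp90b1, with the mean and SD of the 2 libraries of each of the 4 groups (x). In Hspa5, Sdf2l1 and Derl1 both 24 h groups lie above both 12 h groups, in Wfs1 the MPC EV libraries at 12 h (114 and 116) lie between the control libraries at 12 h and at 24 h, and in Hsp90b1 control 12 h replicate 2 (72.0) lies far below the others.

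No translocation or signal peptidase gene passed in either time comparison with all libraries. Sec61a1 and Sec61b, subunits of the channel, had changes of 0.04 and 0.09 in control and of 0.15 and 0.20 under MPC EVs. Ssr1, a subunit of the translocon-associated TRAP complex, had changes of 0.09 and 0.08. Those of Rrbp1, a ribosome-binding protein of the ER membrane, were 0.06 and 0.15. Spcs2 and Ssr2 had control changes of 0.02 and -0.12 and MPC EV changes of 0.22 and 0.23 (adjusted p = 0.0508 and 0.0845 under MPC EVs). The signal peptidase subunit Sec11c had changes of -0.08 and -0.15. Sec62 and Sec63, partners of the channel, and the TRAP subunit Ssr3 had control changes of 0.65, 0.42 and 0.45 and MPC EV changes of -0.29, 0.09 and 0.16. The control values without control 12 h replicate 2 were -0.24 for Sec62, 0.08 for Sec63 and 0.18 for Ssr3, so the direction of Sec62 and the size of all 3 rest on that library.

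Control 12 h replicate 2 was low in a subset of the 37. In 7 genes (Sec62, Hsp90b1, Dnajb9, Dnajc3, Canx, Sec63 and Ssr3) it was lower than replicate 1 by more than 0.5, with gaps of -1.78 to -0.55. These genes were picked out after their values were seen. In the other 30 the gap was between -0.15 and 0.48. The GC content of the 7 transcripts was 40.6% to 43.8% and that of the other 30 was 42.6% to 57.8%, with a median of 50.8%. Over the 37 genes the gap and the GC content correlated at r = 0.694, a description over genes of the same pair of libraries. Neither this r nor the count of 7 is given for all tested genes. The 2 control 12 h libraries stood apart across all genes too (r = 0.947), so neither is shown to be particular to ER genes. Hsp90b1 (GRCm38 chr10:86690209-86705509), the most affected chaperone, had 212 and 72.0 FPKM in control at 12 h, 260 and 251 under MPC EVs at 12 h, 266 and 274 in control at 24 h and 240.0 and 264 under MPC EVs at 24 h. Its control change was 1.13 ± 0.44 with all libraries (adjusted p = 0.133) and 0.35 without that library (adjusted p = 0.0127).

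**Figure D3:**
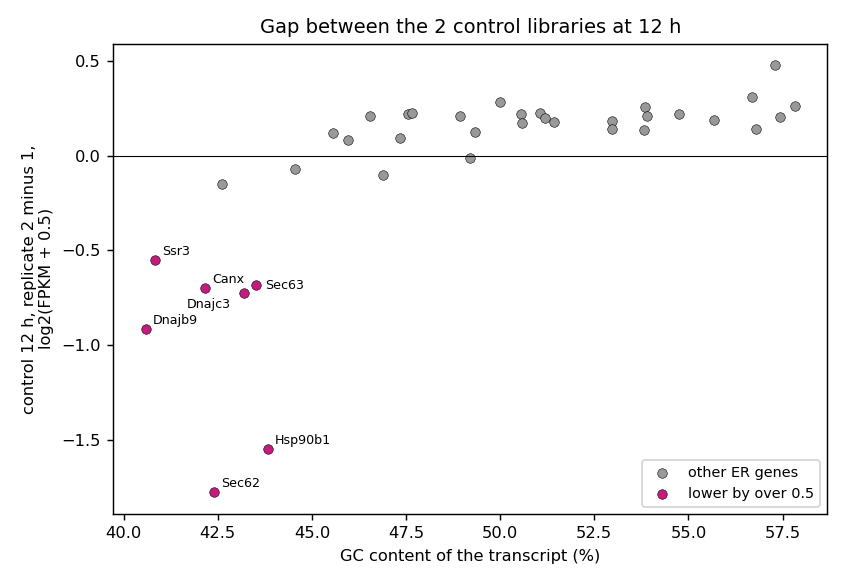
Replicate 2 minus replicate 1 of the control 12 h group (y, log2(FPKM + 0.5)) against the GC content of the transcript in percent (x), 1 point per ER gene, with the 7 genes that are lower by more than 0.5 in colour. The coloured points all lie between 40.6% and 43.8% GC, and the other 30 lie between -0.15 and 0.48.

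The counts of called genes depended on which library was left out, and so did the share of all tested genes that rose. In control 22 of the 37 were called without control 12 h replicate 1, of which 21 rose and Ssr2 fell, beside 22.7% of all tested genes that rose and 18.4% that fell. The count was 21 without control 12 h replicate 2, all rises, beside 12.2% that rose and 11.1% that fell. Without control 24 h replicates 1 and 2 it was 7 and 4, beside rises in 2.09% and 1.68% of all tested genes. Without either of the MPC EV 24 h libraries it was 8, beside 4.69%. Under MPC EVs all calls were rises. Their number was 21 without control 12 h replicate 1 (25.2% of all tested genes) and 21 without replicate 2 (24.8%, with 12.8% that fell). It was 2 and 4 without MPC EV 12 h replicates 1 and 2 (2.43% and 3.75%), 7 without either control 24 h library (6.34% and 6.36%), and 2 without either MPC EV 24 h library (2.07% and 2.2%). Without control 12 h replicate 2, Calr, Pdia6 and Dnajb11 were also called in both treatments, Hsp90b1, Canx, Pdia4, Dnajc3 and Creld2 in control, and Hyou1, Dnajb9, Sec61b, Ssr2, Ssr3, Spcs2 and Derl2 under MPC EVs.

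The question set by the design is whether the change over time differed between treatments, and no such difference was called for any of the 37 (limma, 0 called, beside 0% of all tested genes in either direction). At an unadjusted p under 0.05 there were 3 of the 37 and 2014 of the 10981 tested genes. The median difference, MPC EV minus control, was -0.02 for the 37 and 0.11 for all tested genes. After median-ratio scaling these medians were -0.15 and -0.01, and the count of calls was again 0. The 3 genes were Wfs1 with -0.40 ± 0.13 (adjusted p = 0.203), Atf6 with -0.29 ± 0.09 (adjusted p = 0.187) and Ssr2, a TRAP subunit, with 0.35 ± 0.11 (adjusted p = 0.194). For Atf6 the difference was 0.10, of opposite sign, after the GC and length correction.

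A p that misses the threshold does not show equal changes, and the intervals say what these libraries could exclude. The 95% interval of the difference, unadjusted, was -0.42 to 0.09 for Hspa5, -0.25 to 0.19 for Derl1, -0.50 to 0.25 for Sdf2l1 and -0.27 to 0.28 for Herpud1. The median distance from the value to the end of its interval was 0.30 for the 30 genes with a small control 12 h gap. For the 7 others it was 0.74. The sets were split by that gap, which enters the estimate of spread, so the wider intervals of the 7 partly follow from it. The widest intervals were those of Sec62, from -2.69 to 0.82, and Hsp90b1, from -2.65 to 0.36.

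Without control 12 h replicate 2 the count of called differences among the 37 stayed at 0, and 3 of all tested genes were called (0.0273%, all higher). Wfs1 then had a difference of -0.53 (adjusted p = 0.0543), Hsp90b1 of -0.37 and Atf6 of -0.33 (adjusted p = 0.119 for both). Without control 12 h replicate 1, which leaves the library that stood apart as the sole control at 12 h, 11 of the 37 were called, beside 17.8% of all tested genes called higher and 15.6% lower. Of these, Ssr2, Spcs2 and Xbp1 were higher, and Canx, Dnajb9, Dnajc3, Hsp90b1, Sec62, Sec63, Ssr3 and Wfs1 were lower. In both of these fits the lone control library at 12 h is assumed to vary like the other groups.

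**Figure D4:**
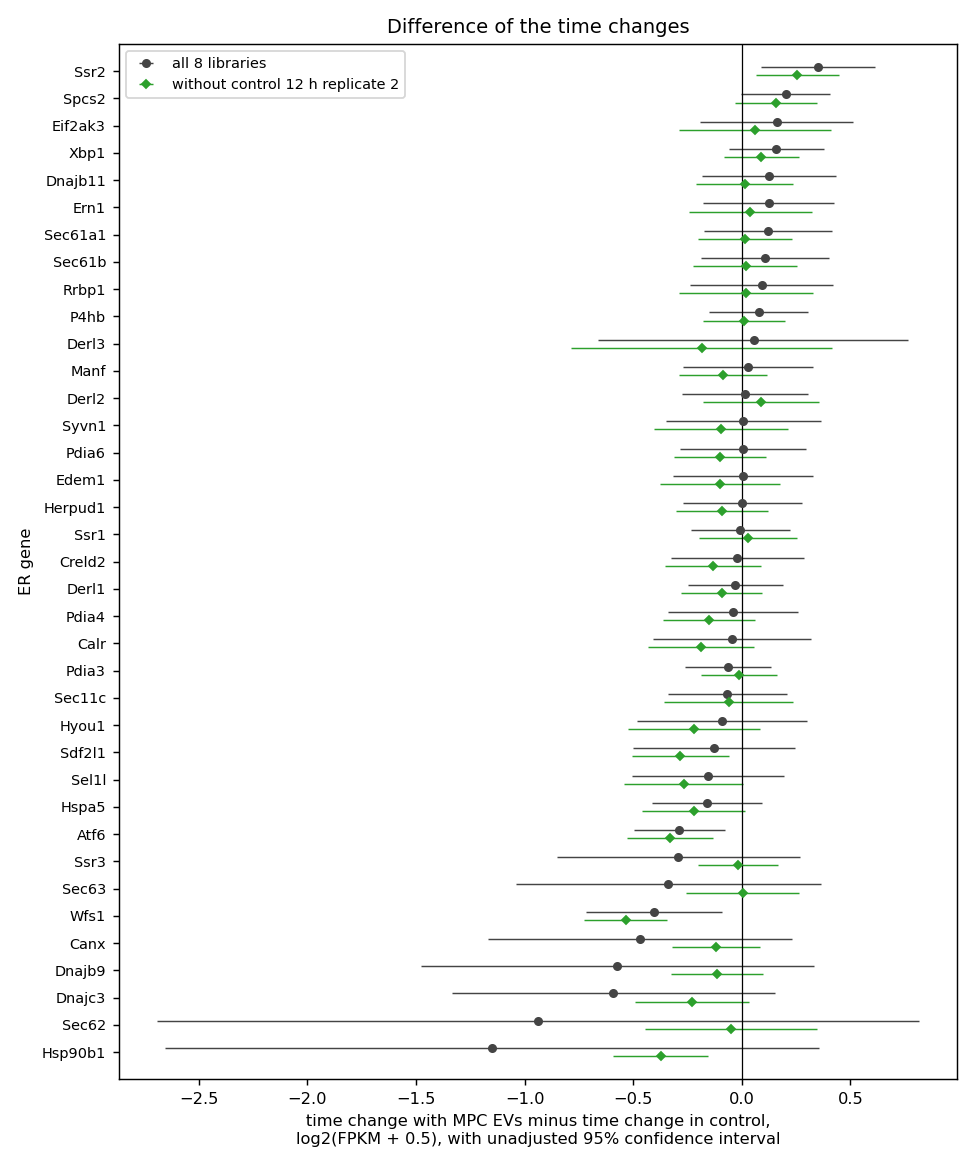
Time change with MPC EVs minus time change in control (x, log2(FPKM + 0.5), with unadjusted 95% confidence interval) of each of the 37 ER genes (y), in grey for all 8 libraries and in green without control 12 h replicate 2. The intervals of Hsp90b1, Sec62, Dnajc3, Dnajb9, Canx, Sec63 and Ssr3 shorten and their values move toward 0 without that library, while Wfs1 moves from -0.40 to -0.53.

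At 12 h, MPC EV myotubes differed from control in 3 of the 37 genes, with 1 higher and 2 lower (limma). Among all tested genes 4.36% were higher and 14.3% lower, and the medians were -0.002 for the 37 and -0.12 for all. With median-ratio scaling the split of the 37 was 2 higher and 0 lower, and that of all tested genes went from 479 higher and 1566 lower to 797 and 577. Without control 12 h replicate 2, 3 of the 37 were higher (Wfs1, Hsp90b1 and Derl3) and 1 was lower (Spcs2), beside 5.75% and 10.4% of all tested genes. Wfs1 was higher by 0.45 ± 0.09 (1.37-fold, adjusted p = 0.0258), and by 0.58 without that library (adjusted p = 0.00204). Spcs2, a signal peptidase subunit, was lower, with 61.1 and 65.3 FPKM in control and 52.3 and 50.4 under MPC EVs. Its difference was -0.30 ± 0.06 (adjusted p = 0.0255), and at 24 h it held 64.2 and 63.7 FPKM in control and 61.4 and 58.5 under MPC EVs.

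Ssr2 was the other lower gene at 12 h, with 146 and 166 FPKM in control and 131 and 123 under MPC EVs, and with 146 and 141 in control and 152 and 148 under MPC EVs at 24 h. Its difference at 12 h was -0.29 ± 0.08 (adjusted p = 0.0474) and was lost in 16 of 20 alternatives, with -0.14 under median-ratio scaling and -0.04 after the GC and length correction. The call of Spcs2 was lost in 11 of 20 and that of Wfs1 in 8 of 20 alternatives. The count of called genes at 12 h was 18 without control 12 h replicate 1, with 8 higher and 10 lower, beside 19.9% of all tested genes higher and 31.8% lower. It was 4 without control 12 h replicate 2. It was 0 without any one of the MPC EV libraries at 12 h or of the libraries at 24 h, where 0.637% to 2.11% of all tested genes were higher and 1.29% to 5.11% lower. At 24 h, 0 of the 37 differed between treatments (limma), while 2.61% of all tested genes were higher and 0.956% lower under MPC EVs. At an unadjusted p under 0.05 there was 1 of the 37, beside 14.2% of all tested genes. The medians were -0.09 for the 37 and -0.03 for all tested genes, and the count was 0 in all 20 alternatives. Without control 12 h replicate 2 it was 0 beside 5.32% of all tested genes higher and 2.94% lower.

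Calls and changes were also counted for genes with and without an ERSE in their window, with no test between them. Of the 9, Hspa5 and Syvn1 were called in each time comparison, with medians of 0.41 in control and 0.22 under MPC EVs. Of the 21 with a window and no ERSE, 7 were called in each, with medians of 0.24 and 0.22. Among all tested genes 7.54% rose in control and 12.9% under MPC EVs. At an unadjusted p under 0.05 the control counts were 7 of 9 with the element and 9 of 21 without, beside 33.3% of all tested genes. With control 12 h replicate 2 left out, the control medians were 0.35 with the element and 0.18 without, beside -0.002 for all tested genes. The order of the called shares in control turned with that library. Among the 28 other genes with an ERSE, 6 were tested and 0 were called in either time comparison (limma), with 1 at an unadjusted p under 0.05 in control and 0 under MPC EVs. Wfs1, Sdf2l1, Sel1l, Edem1 and Eif2ak3, called in both treatments, have a window without the element, and no window was found for Derl1.

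Other genes, most of them of the secretory pathway, were listed by function, though with earlier results of these data known. Their counts stand beside the same background. Of all tested genes, 7.54% rose and 10.3% fell in control, and 12.9% rose and 5.4% fell under MPC EVs. Of 25 other folding and glycosylation genes, 7 rose in each treatment and 0 fell. Of 22 other degradation genes, 4 rose and 1 fell in control and 7 rose and 1 fell under MPC EVs. Of 14 other translocation and signal peptidase genes, 3 rose in control and 1 under MPC EVs. Of 21 ER-to-Golgi transport genes the counts were 3 and 4, of 12 collagen folding genes 4 and 4, and of 16 cytosolic and mitochondrial chaperones 1 and 5, with 0 falling in each. Of 18 genes that process or carry out the unfolded protein response, 4 rose in control and 7 under MPC EVs. The medians of these 7 lists ran from 0.07 to 0.25 in control and from 0.12 to 0.32 under MPC EVs.

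None of these 7 lists had a called difference between the time changes (limma), and the unadjusted counts were 2, 3, 3, 2, 2, 3 and 0 in the order given. The smallest p in the folding list belonged to Mogs, the glucosidase that starts glycan trimming, with a difference of 0.38 ± 0.09 (adjusted p = 0.149). In the degradation list it was Edem2, a relative of Edem1, with a change of -0.06 in control, a rise of 0.39 under MPC EVs and a difference of 0.44 ± 0.13 (adjusted p = 0.174). In the translocation list it was the signal peptidase subunit Spcs1, at 0.28 ± 0.10 (adjusted p = 0.219). In the transport list it was Kdelr1, the receptor that returns escaped ER chaperones, with a change of 0.00 in control, a rise of 0.26 under MPC EVs and a difference of 0.26 ± 0.09 (adjusted p = 0.22). In the collagen folding list it was the lysyl hydroxylase Plod3, at 0.38 ± 0.09 (adjusted p = 0.146).

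The tested genes most like Hspa5 over the 8 libraries, by Pearson r of log2(FPKM + 0.5), were Sash1 (r = 0.995), Avil (r = 0.994), Derl1 (r = 0.994), Serinc3 (r = 0.993) and Ghitm (r = 0.993), as a description of libraries that share 2 times and 2 treatments. Derl1 is the one member among these 5. Of the other members, Sdf2l1, Herpud1, Sel1l and Manf followed at 0.980, 0.979, 0.973 and 0.970, and Sec11c was the one with a negative value (r = -0.443). The control libraries of Ghitm, which encodes a mitochondrial inner membrane protein, went from 262 and 262 to 396 and 409 FPKM and its MPC EV libraries from 268 and 259 to 362 and 359.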

How the data were processed

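RNA of 8 myotube libraries, 2 per group, was measured by paired-end, non-strand-specific RNA-seq, per the labels' protocols. FPKM values, 1 column for each library, were deposited by the authors in a single table. The submitters' processing notes name build mm10 and the tools HISAT2 and DESeq2 (given with version 2), without saying what each was used for. The counting tool, the annotation and any scaling are not stated. No column lacked a sample (0).

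Identifiers were matched to symbols in GENCODE vM21 (34490 matched, 785 did not). Fragment counts could not be recovered: in 5477 of 21406 genes above 0 (25.6%), 2 of the 37 among them, all values were whole multiples of 1 fragment within a tolerance of 0.02. Genes with an average of 1 FPKM or more were therefore tested with limma 3.58.1 (R 4.3.3; lmFit, then eBayes with trend) on the log2(FPKM + 0.5) scale. Tests were two-sided, and all 4 groups entered 1 model with 4 residual degrees of freedom. P-values were adjusted by Benjamini-Hochberg over all 10981 tested genes, with a threshold of 0.05. The steps were tested on simulated data. Tables and figures used Python 3.11.15, numpy 2.4.6, pandas 2.3.3 and matplotlib 3.10.9. Promoter windows came from RefSeq (GRCm38.p6).

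The members and gene lists were chosen with earlier results of these data known. Values are given in every library for members called in any comparison and for Hspa5, Atf6, Ern1, Eif2ak3 and Xbp1. Of each other list, at most 3 genes are named, those ranked first by p for the difference of the time changes, and the 5 genes most correlated with Hspa5. Alternatives were pseudocounts of 0.1 and 1, no filter or one at 0.1 or 5 FPKM, quantile normalization, median-ratio scaling, a correction for GC content and length (values for 99.7% of tested genes), no variance trend, a replicate block, array weights, fits to 2 groups only and each library left out.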

Additional observations from a re-analysis of the deposited data

How the results depend on the processing

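The count of the 37 genes called for the change over time in control myotubes, 13 with the analysis as described, was 8 without a filter on low values, 3 when only the 2 groups compared were fitted, and 4 to 22 over the fits that leave out 1 library. Under MPC EVs it was 11, and became 7 without a filter, 7 with median-ratio scaling, 19 with array weights, 18 with only the 2 groups, and 2 to 21 with 1 library left out. The count for the difference of the time changes was 0 in 18 of 19 alternatives, and 0 to 11 over the fits that leave out 1 library. At 12 h the count of 3 became 5 with the GC and length correction, 0 with array weights, 0 with only the 2 groups, and 0 to 18 with 1 library left out. At 24 h it was 0 throughout. After the GC and length correction the difference of the time changes was 0.052 for Hspa5 and 0.096 for Atf6, both of opposite sign to -0.161 and -0.288. Calls over all tested genes moved as well. In control, 828 of 10981 rose with the analysis as described, 673 of 21406 without a filter and 157 of 10981 with only the 2 groups. Counts without such a number beside them do not show whether the 37 moved apart from other genes. The causes of these shifts were not tested. A fit to 2 groups cannot give the difference, which needs all 4, and Eif2ak3 falls below the filter at 5 FPKM.

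With the replicate number as a block, 12 genes were called for time in control, 9 under MPC EVs, 0 for the difference, 1 at 12 h and 0 at 24 h. Deviations of libraries with the same number correlated between -0.613 (control 12 h and MPC EV 24 h) and 0.241 (control 24 h and MPC EV 24 h). With 2 libraries a group, and control 12 h replicate 2 standing apart, these values cannot show whether the numbers pair libraries. Over all tested genes, median-ratio scaling changed the calls for time under MPC EVs from 1420 higher and 593 lower to 844 and 915. With the replicate block, 612 of all tested genes rose and 872 fell for time in control.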
